A study of Homo sapiens with 3 samples.

Results

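RGS genes encode regulators of G-protein signalling, and 10 of them were followed through 3 messenger RNA libraries of A375SM, a metastatic human melanoma line derived from A375. The members are RGS2, RGS3, RGS4, RGS5, RGS16, RGS10, RGS12, RGS14, RGS19 and RGS20, which are 10 of the 24 rows with an RGS symbol among the 24424 genes of the count table. They were chosen by their measured counts in these same libraries, so every value for them is a description and none is a test. The cells had been infected with lentiviral vectors that carry a green fluorescent reporter, and reporter-positive cells had been grown into stable populations. One population carries a hairpin against PRAME (shPRAME, labelled PRAME knockdown), one a hairpin against BAP1 (shBAP1, labelled BAP1 knockdown), and the control (shEmpty) has the genotype label WT. The labels call the control both an empty vector and a non-targeting hairpin, and all 3 populations carry the reporter vector and were grown in the same serum-containing medium. Each group is 1 library of 1 infected population, with 1 hairpin named per target, so effects of lowering the target and other effects of that hairpin cannot be told apart.

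A G-protein coupled receptor switches on a heterotrimeric G protein by making its alpha subunit exchange GDP for GTP. RGS proteins bind the active alpha subunit and speed its GTP hydrolysis, which ends the signal to effectors such as adenylyl cyclase and phospholipase C beta. The family is divided by sequence into the R4, R7, R12 and RZ subfamilies. R4 proteins are mostly small and act on alpha subunits of the Gi and Gq classes, R12 proteins act on the Gi class, and RZ proteins are known for acting on Gz and Gi. In melanocytes and melanoma, Gs-coupled MC1R and Gq-coupled endothelin receptors are well-known inputs to this cycle.

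The libraries held 19430130 (shEmpty), 14181829 (shBAP1) and 18456328 (shPRAME) counts. Values are counts per 1000000 on TMM-scaled library size (CPM), with exact 95% intervals that cover counting error only. A difference between 2 libraries is called higher or lower where it is at least 2-fold and its exact 95% interval leaves out no change, among the 11956 genes whose count averaged 50 or more over the libraries, which are termed measured. All 10 members are measured. No difference has a replicate check. PRAME was 32.9% of its shEmpty level in shPRAME and BAP1 was 35.2% of its shEmpty level in shBAP1, so each target was lowered in its own library. Of 15 melanocyte and melanoma lineage markers, 13 were measured. Of these, 2 were called higher and 3 lower in shPRAME, where 10.2% and 9.08% of all measured genes were. In shBAP1 5 were called higher and 2 lower, where 5.53% and 8.56% of all measured genes were. SOX10, a lineage transcription factor, stood at 506, 367 and 657 CPM in shEmpty, shBAP1 and shPRAME. MITF stood at 309.9, 239 and 114 CPM in that order and was called lower in shPRAME. The pigment enzyme genes had most of their counts in shBAP1, with TYR at 4, 573 and 0 counts, TYRP1 at 0, 1037 and 1, and DCT at 192, 1668 and 6. CSPG4, a melanoma proteoglycan, went the other way, at 1295, 447 and 3095 CPM. The part of this difference in lineage markers in the RGS levels was not tested.

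4 members carry most of the contrast, and their promoters are shown because all 4 genes are of the R4 subfamily and lie on the long arm of chromosome 1. That location is not particular to them. The R4 genes RGS1, RGS8, RGS13, RGS18 and RGS21, which were not measured, are also on chromosome 1. Each line gives the 120 bases before a RefSeq start on GRCh38.p14, 5′ to 3′ on the gene's strand, with capitals for letters that match TATANA or CCAAT on either strand. The RGS2 window is chr1:192808919-192809038 on the plus strand, the RGS4 window chr1:163069241-163069360 on the plus strand, the RGS5 window chr1:163202917-163203036 on the minus strand and the RGS16 window chr1:182604390-182604509 on the minus strand.
RGS2: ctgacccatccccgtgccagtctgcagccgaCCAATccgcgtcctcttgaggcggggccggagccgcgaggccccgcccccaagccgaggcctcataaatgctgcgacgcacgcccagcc
RGS4: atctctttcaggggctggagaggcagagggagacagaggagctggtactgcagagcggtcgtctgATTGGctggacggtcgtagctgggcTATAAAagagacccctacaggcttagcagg
RGS5: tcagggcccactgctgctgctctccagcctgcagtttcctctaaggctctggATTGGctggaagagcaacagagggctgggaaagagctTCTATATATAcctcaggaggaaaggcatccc
RGS16: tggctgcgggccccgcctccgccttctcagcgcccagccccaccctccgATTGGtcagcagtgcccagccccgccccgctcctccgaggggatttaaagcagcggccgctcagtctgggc

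RGS4 and RGS5 are next to each other among the measured genes, and their windows are alike near the start. In RGS4 a TATANA match lies at -30 to -25, counted back from -1 at the base before the start, and in RGS5 overlapping matches begin at -31, -29 and -27. The longest run of letters that both windows hold is GATTGGCTGGA, 11 bases long, which begins at -56 in RGS4 and at -69 in RGS5 and contains the inverted CCAAT of each. It is present on either strand in 35 of 35116 RefSeq promoter windows of this length (0.0997%), of which many belong to the same gene. This run was looked for after the counts were known. Neither RGS2 nor RGS16 has a TATANA match in its window. The longest run that these windows share is GCCCCGCCCC (10 bases), which 7.20% of windows hold.

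8 of the 10 members were searched for 8 motifs on both strands, each at a RefSeq start within 250 bases of the principal GENCODE start. RGS12 had no such start among the windows. RGS20 was left out because member windows on chromosome 8 were not used, whatever their distance. TATANA, letters of the TATA box, was in 3 of 8 (RGS4, RGS5 and RGS14) and in 9.19% of all windows. The RGS14 matches lie farther from the start than those of RGS4 and RGS5, at -83 to -78 and -85 to -80. CCAAT was in 4 of 8 (RGS2, RGS4, RGS5 and RGS16) and in 20.4% of all windows. The GC box GGGCGG was in 4 of 8 (RGS2, RGS10, RGS16 and RGS19) and in 34.0% of all windows. The core of the cAMP response element, TGACG, had no match in the 8 windows (13.3% of all), nor did the full element TGACGTCA, which contains it (1.29%). The E-boxes CATGTG (4.88%) and CACGTG (3.90%) and the AP-1 site TGANTCA (3.34%) also had no match. RGS4 has 4 RefSeq windows and RGS5 has 2, and which start these cells use was not measured. The starts shown for RGS4 and RGS5 lie 216 and 197 bases from the principal GENCODE starts.

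In shPRAME, 5 of the 10 members were called higher than in shEmpty and none lower, where 10.2% of all measured genes were called higher and 9.08% lower. The 5 were RGS4, RGS5, RGS2, RGS20 and RGS14, and the median log2 ratio of the members was 0.94, beside -0.06 for all measured genes. In shBAP1, 4 members were called higher (RGS16, RGS2, RGS20 and RGS14) and 3 lower (RGS4, RGS12 and RGS10), where 5.53% of measured genes were called higher and 8.56% lower. Of all calls in shBAP1, 39.2% were higher, and with scaling by total count 49.8% were. The median log2 ratio of the members in shBAP1 was 0.65, beside -0.03 for all measured genes. Between the knockdowns, 3 members were called higher in shPRAME (RGS4, RGS5 and RGS12) and 1 higher in shBAP1 (RGS16), where 14.2% of measured genes were called higher in shPRAME and 10.9% lower. Because the members were chosen on these contrasts, nothing is read from their shares. Both comparisons with shEmpty use the same control library.

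**Figure D1:**
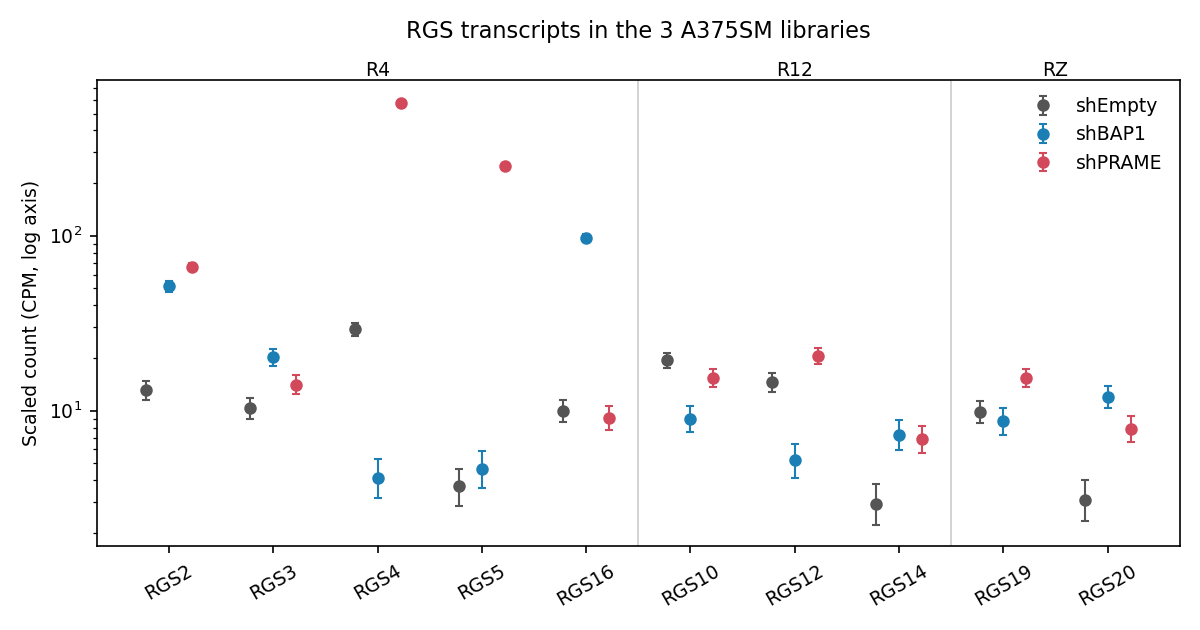
Scaled counts (CPM, log axis) of the 10 RGS genes in the shEmpty, shBAP1 and shPRAME libraries, grouped by subfamily, with points for single libraries and bars for exact 95% counting intervals. RGS4 and RGS5 reach 578 and 252 CPM in shPRAME, and RGS16 reaches 97.3 CPM in shBAP1.

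RGS4 had the widest range of the members. Its product acts on Gi and Gq alpha subunits and is a short-lived protein known from brain and heart. RGS4 had 548 counts in shEmpty, 61 in shBAP1 and 10559 in shPRAME, or 29.2, 4.11 and 578 CPM. The 3 levels do not overlap within their counting intervals, and shEmpty lies between the knockdowns. RGS4 was 19.7-fold higher in shPRAME than in shEmpty (18.1 to 21.6) and 7.12-fold lower in shBAP1 than in shEmpty (5.46 to 9.43). Between shPRAME and shBAP1 the difference was 141-fold (109 to 184). By size of log2 ratio, RGS4 ranked 106th of the measured genes in shPRAME against shEmpty and 294th in shBAP1 against shEmpty.

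RGS5, whose product also acts on Gi and Gq and which is a well-known marker of pericytes, was high in shPRAME and low in the other libraries. It had 69 counts in shEmpty, 69 in shBAP1 and 4606 in shPRAME, or 3.68, 4.65 and 252 CPM. The shEmpty and shBAP1 levels overlap within counting error, with a ratio of 1.26 (0.891 to 1.79). RGS5 was 68.4-fold higher in shPRAME than in shEmpty (53.9 to 88.1), the 42nd largest ratio by size among measured genes. It was 54.2-fold higher in shPRAME than in shBAP1 (42.7 to 69.8). Some GENCODE transcripts of RGS5 overlap NUF2, a kinetochore gene on the opposite strand. NUF2 had 1883, 852 and 976 counts in shEmpty, shBAP1 and shPRAME, so it was not higher where RGS5 was. Whether counting used the strand is not given in the sources used here.

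Markers of pericytes and smooth muscle were looked at beside RGS4 and RGS5, which those cells are known to express. Leaving out CSPG4, which melanoma cells also make, the other 9 markers summed to 206 CPM in shEmpty, 380.2 in shBAP1 and 325 in shPRAME. Of the 9, 5 were measured. In shPRAME 3 of these 5 were called higher, namely PDGFRB, ACTA2 and NOTCH3, and none lower, beside 10.2% and 9.08% of all measured genes. None was called in shBAP1. PDGFRB was at 3.90, 3.57 and 19.4 CPM in shEmpty, shBAP1 and shPRAME, ACTA2 at 4.91, 8.22 and 24.1 CPM, and NOTCH3 at 2.13, 1.68 and 8.86 CPM. ABCC9 was measured and not called, at 22.6, 28.0 and 29.8 CPM. TAGLN had 46, 15 and 40 counts and MYH11 had 20, 13 and 35, both too few to be measured. KCNJ8 had no count in any library, and DES had 0, 4 and 1 counts. Most of the sum was MCAM, which melanoma cells also express, at 169, 337 and 239 CPM. In bulk RNA, a change in the number of cells of a type and a change in RNA per cell cannot be told apart. 8 fibroblast markers summed to 619 CPM in shEmpty, 106 in shBAP1 and 1479 in shPRAME. Of the 4 that were measured, 2 were called higher and none lower in shPRAME, beside 10.2% and 9.08% of all measured genes. In shBAP1 1 was called higher and 2 lower, beside 5.53% and 8.56% of all measured genes. COL6A3 (556, 4.58 and 1363 CPM) made up most of the shEmpty and shPRAME sums. COL6A3 and PDGFRA (14.0, 2.22 and 24.4 CPM) had the order of RGS4. LUM (19.4, 32.5 and 21.8 CPM) and COL3A1 (1, 66 and 13 counts) were highest in shBAP1. FAP was called higher in both knockdowns, at 28.6, 59.1 and 65.0 CPM. DCN had 20, 40 and 49 counts, COL1A1 had 1, 3 and 23, and DPT had none in any library. The part of pericytes, smooth muscle cells or fibroblasts in the RGS4 and RGS5 levels was not tested.

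RGS16 was high in shBAP1 and low in the other libraries. Its product acts on Gi and Gq and its gene is known to respond to inflammatory and metabolic signals. RGS16 had 186 counts in shEmpty, 1444 in shBAP1 and 166 in shPRAME, or 9.93, 97.3 and 9.08 CPM. The shEmpty and shPRAME levels overlap within counting error, with a ratio of 1.09 (0.882 to 1.36). RGS16 was 9.80-fold higher in shBAP1 than in shEmpty (8.41 to 11.5) and 10.7-fold higher in shBAP1 than in shPRAME (9.12 to 12.7). It ranked 219th by size of log2 ratio in shBAP1 against shEmpty.

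RGS2, whose product is selective for Gq, was above shEmpty in both knockdown libraries. It had 245, 762 and 1215 counts in shEmpty, shBAP1 and shPRAME, or 13.1, 51.3 and 66.5 CPM. The control is lowest and no 2 libraries overlap. RGS2 was 5.08-fold higher in shPRAME than in shEmpty (4.43 to 5.85) and 3.93-fold higher in shBAP1 than in shEmpty (3.39 to 4.55). The knockdowns differed by 1.29-fold (1.18 to 1.42), inside the 2-fold limit.

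RGS3, the remaining R4 member, has long isoforms with a PDZ domain and was not called in any comparison. It had 193, 300 and 257 counts in shEmpty, shBAP1 and shPRAME, or 10.3, 20.2 and 14.1 CPM. The libraries do not overlap in counting error, with shBAP1 highest and shEmpty lowest. RGS3 lies just inside the 2-fold limit in shBAP1 against shEmpty, at 1.96-fold (1.63 to 2.36), and it passes that limit with scaling by total count or upper quartile. In shPRAME against shEmpty it was at 1.36-fold (1.13 to 1.65).

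**Figure D2:**
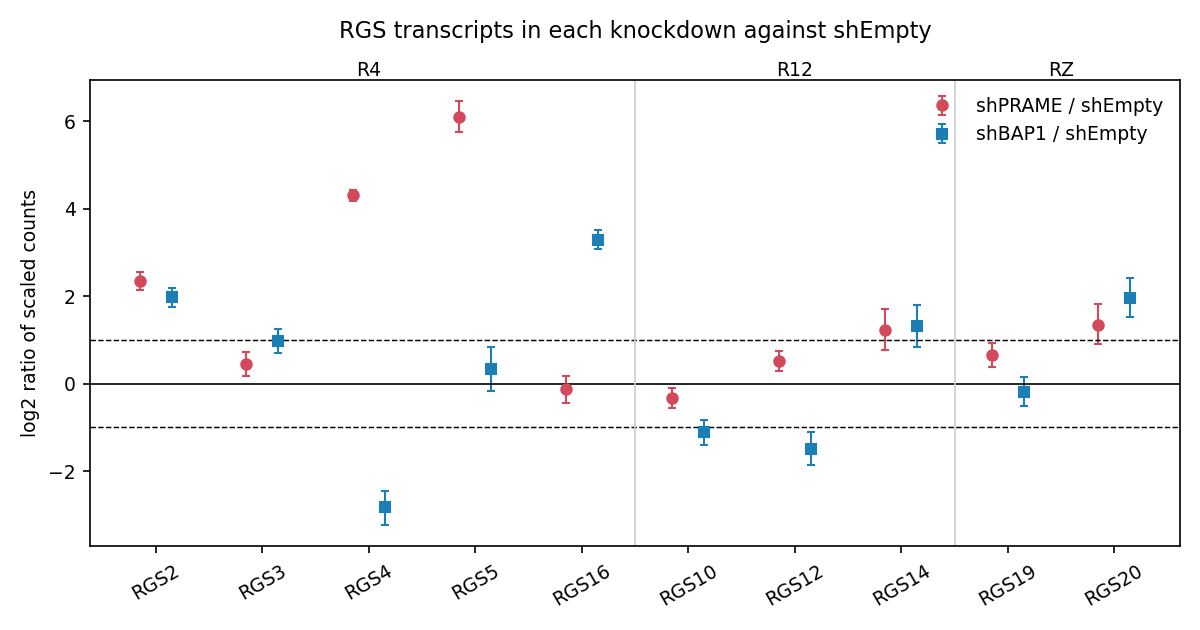
log2 ratios of scaled counts of the 10 RGS genes in shPRAME (circles) and shBAP1 (squares) against the shared shEmpty library, with exact 95% counting intervals and dashed lines at the 2-fold limit. RGS4 is at 4.30 in shPRAME and -2.83 in shBAP1, whereas RGS2, RGS14 and RGS20 lie above the upper line in both.

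The R12 members were at low to moderate levels and differed in direction. RGS10 encodes a small Gi regulator known from microglia and other immune cells. It had 363, 133 and 282 counts in shEmpty, shBAP1 and shPRAME, or 19.4, 8.96 and 15.4 CPM, and was highest in the control. RGS10 was 2.16-fold lower in shBAP1 than in shEmpty (1.77 to 2.66), and its ratio in shPRAME was 1.26-fold downward (1.07 to 1.47). With scaling by total count the shBAP1 call ended, at a log2 ratio of -0.99.

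RGS12 encodes a large scaffold with PDZ, phosphotyrosine-binding, Ras-binding and GoLoco domains besides its RGS domain. It had 272, 77 and 377 counts in shEmpty, shBAP1 and shPRAME, or 14.5, 5.19 and 20.6 CPM. The order is that of RGS4 (shPRAME, then shEmpty, then shBAP1), over a narrower range. RGS12 was 2.80-fold lower in shBAP1 than in shEmpty (2.17 to 3.65). Its shPRAME level was 1.42-fold that of shEmpty (1.21 to 1.67), inside the limit, and 3.98-fold that of shBAP1 (3.10 to 5.15).

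RGS14, a related scaffold with Ras-binding and GoLoco domains that is known from hippocampal neurons, was lowest in the control. It had 55, 108 and 126 counts in shEmpty, shBAP1 and shPRAME, or 2.94, 7.27 and 6.89 CPM. It was 2.35-fold higher in shPRAME than in shEmpty (1.70 to 3.28) and 2.48-fold higher in shBAP1 than in shEmpty (1.78 to 3.49). The knockdown libraries overlap within counting error, with a ratio of shBAP1 to shPRAME of 1.06 (0.809 to 1.38).

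Of the RZ members, RGS20 was called in both comparisons with shEmpty and RGS19 in neither. RGS20 encodes a regulator that prefers Gz. It had 58, 178 and 144 counts in shEmpty, shBAP1 and shPRAME, or 3.10, 11.99 and 7.88 CPM. All 3 levels differ beyond counting error. RGS20 was 2.54-fold higher in shPRAME (1.86 to 3.51) and 3.87-fold higher in shBAP1 (2.87 to 5.30). RGS19 encodes GAIP, a Gi regulator found on clathrin-coated vesicles. It had 185, 129 and 282 counts, or 9.87, 8.69 and 15.4 CPM, with shEmpty and shBAP1 overlapping. Its ratio to shEmpty was 1.56-fold upward in shPRAME (1.29 to 1.89) and 1.14-fold downward in shBAP1 (0.903 to 1.43).

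In order of CPM, 5 members were highest in shPRAME, 4 in shBAP1 and 1, RGS10, in shEmpty. 5 were lowest in shEmpty, 4 in shBAP1 and 1, RGS16, in shPRAME. In 4 members a pair of neighbouring libraries in that order did not differ beyond counting error, namely RGS5, RGS14, RGS16 and RGS19. The summed count of the members was 2174 in shEmpty, 3261 in shBAP1 and 18014 in shPRAME, or 116, 219.7 and 985 CPM. RGS4 and RGS5 made up 28.4%, 3.99% and 84.2% of those sums. Without them the sums were 83.1, 211 and 156 CPM, so that shBAP1 was then the highest.

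The make-up of the family was compared per length, as CPM per kilobase of the principal GENCODE transcript. On this scale the 20 genes of the 4 subfamilies summed to 62.7 in shEmpty, 112 in shBAP1 and 322 in shPRAME, and the 10 members held 97.9% to 99.1% of each sum. In shEmpty RGS10 was the most abundant at 24.1 CPM per kilobase (38.4% of the sum), followed by RGS2 at 9.66 and RGS4 at 9.14. In shBAP1 RGS16 led at 40.1 CPM per kilobase (35.9%), with RGS2 at 37.9 (33.9%) and RGS10 at 11.1. In shPRAME RGS4 led at 180.5 CPM per kilobase (56.1%), with RGS2 at 49.1 (15.2%) and RGS5 at 43.0 (13.3%). By these values a different gene led in each library, and RGS2 was second in all 3. No counting interval was put on these ranks. RGS16 and RGS2 were close in shBAP1, as were RGS2 and RGS4 in shEmpty, so their order there is not settled. The lengths are those of 1 transcript per gene, and which isoforms were present was not measured.

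**Figure D3:**
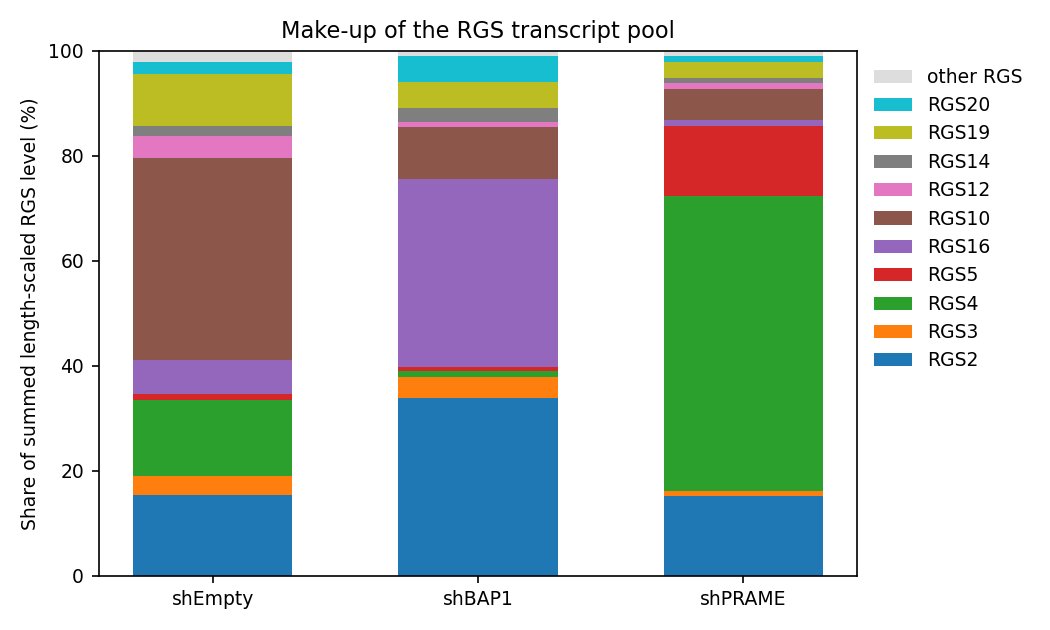
Share of each RGS gene in the summed length-scaled level (CPM per kilobase) of the 20 genes of the R4, R7, R12 and RZ subfamilies, 1 bar per library. RGS10 holds 38.4% in shEmpty, RGS16 35.9% in shBAP1 and RGS4 56.1% in shPRAME.

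Of the other 14 RGS-named rows, 1 was measured. RGS17, an RZ gene whose product acts on Gz and Gi, had 112, 58 and 284 counts in shEmpty, shBAP1 and shPRAME, or 5.98, 3.91 and 15.5 CPM. It was 2.60-fold higher in shPRAME than in shEmpty (2.08 to 3.26), and its shBAP1 ratio was 1.53-fold downward (1.10 to 2.14). RGS7, of the R7 subfamily, had 18, 0 and 12 counts, and RGS9BP, which anchors RGS9 in photoreceptors, had 18, 24 and 22. RGS9 had 1, 1 and 20 counts and RGS11 had 1, 3 and 23, both R7 genes with nearly all their counts in shPRAME. Of the rest, 4 rows (RGS1, RGS8, RGS13 and RGS18) had between 1 and 7 counts in their highest library. 5 rows (RGS6, RGS21, RGS22, RGS7BP and RGSL1) had no count, and the 3 counts that a count of 0 allows correspond to 0.202 CPM in shBAP1, the shallowest library. RGS1, RGS13 and RGS18 are known from leukocytes, of whose 11 markers none was measured. Those markers summed to 2.67, 3.77 and 6.34 CPM in shEmpty, shBAP1 and shPRAME, with PTPRC at 40, 32 and 52 counts, LYZ at 3, 15 and 34, CD14 at 1, 5 and 19, and no count of CD3D, CD3E or CD2.

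The genes around the chromosome 1 members were taken from the RefSeq order after the values were seen, as the 3 nearest measured genes on each side. Nearest here is by rank among measured genes. Distances in bases were not compared, so such neighbours can lie far apart. Around the adjacent pair RGS4 and RGS5 lie UAP1, DDR2 and HSD17B7 on one side and NUF2, RXRG and MGST3 on the other. None of these 6 was called higher in either knockdown. RXRG, a retinoid receptor gene, was called lower in both, 2.93-fold in shPRAME and 2.82-fold in shBAP1. HSD17B7, the nearest measured gene beyond RGS4, had log2 ratios of 0.08 in shPRAME and 0.13 in shBAP1. Next to RGS16, NPL, a sialic acid aldolase, was 3.01-fold higher in shBAP1, and the other 5 neighbours were not called there. GLUL (glutamine synthetase), on the other side of RGS16, was 2.51-fold lower in shPRAME.

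**Figure D4:**
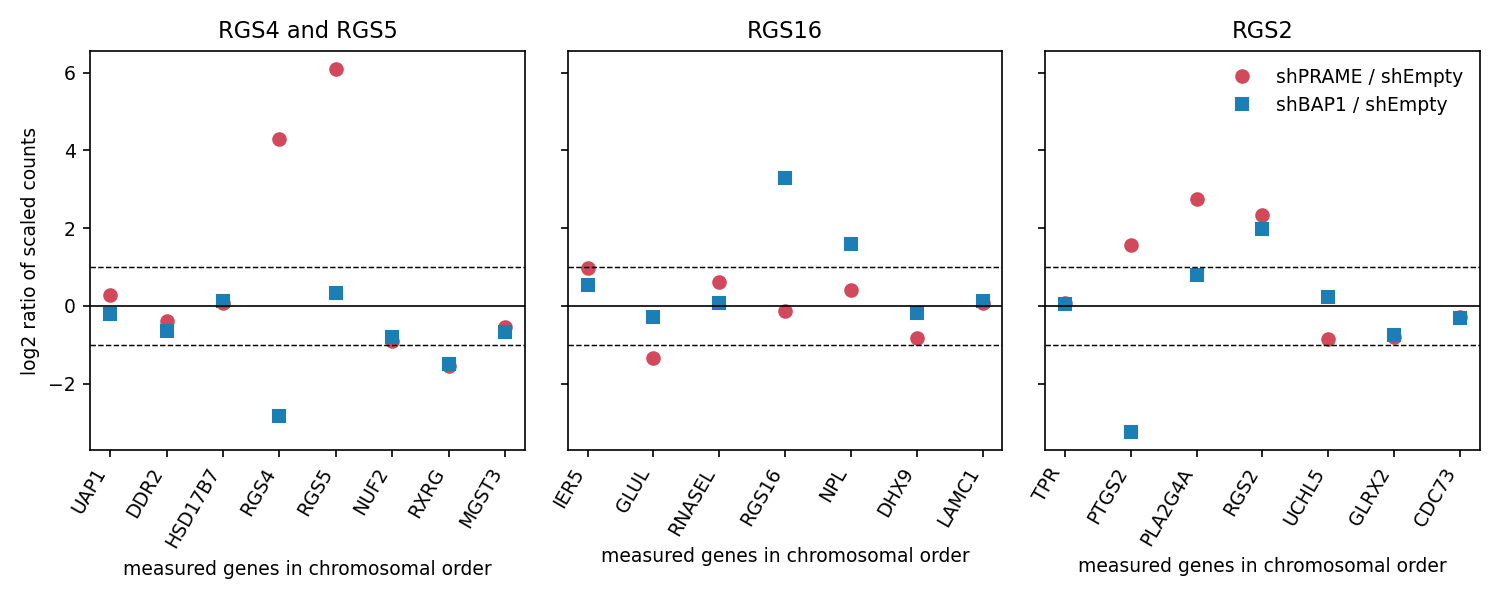
log2 ratios against shEmpty of the measured genes around RGS4 and RGS5, around RGS16 and around RGS2, in chromosomal order at equal spacing, for shPRAME (circles) and shBAP1 (squares), with dashed lines at the 2-fold limit. RGS4 and RGS5 lie at 4.30 and 6.10 in shPRAME, whereas their neighbours lie between 0.28 (UAP1) and -1.55 (RXRG).

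For the 3 members with the widest range of log2 level (RGS4, RGS5 and RGS16), the 3 measured genes outside the family with the nearest pair of log2 ratios against shEmpty were found. These distances rest on 3 libraries. For RGS4 they were FAM167A (distance 0.37), MUC13 (0.88) and PRRX2 (0.93), with 11, 8 and 37 counts in shEmpty and 181, 281 and 407 in shPRAME. For RGS5 they were NCMAP (0.41), APLNR (0.61) and TNS1 (0.81), with 4, 2 and 3 counts in shEmpty and 201, 149 and 350 in shPRAME. PRRX2 and TNS1 had no count in shBAP1, so their distances depend on the floor of 3 counts. FAM167A and MUC13 had 1 count each in shBAP1, and NCMAP and APLNR had 4 and 3. Their distances therefore also rest on very few counts. For RGS16 they were RBMS3 (0.25), COL14A1 (0.29) and HIST1H2BK (0.49), with 71, 19 and 75 counts in shEmpty and 491, 126 and 421 in shBAP1. The genes near RGS4 and RGS5 had far fewer counts than those members themselves.

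The rest of the G-protein cycle was described through 10 lists, whose 76 measured genes included 10 called higher and 8 lower in shPRAME and 10 higher and 15 lower in shBAP1. These are 13.2% and 10.5% in shPRAME, beside 10.2% and 9.08% of all measured genes, and 13.2% and 19.7% in shBAP1, beside 5.53% and 8.56%. The lists, too, were chosen with earlier results known, and medians below are of log2 ratios in shPRAME and then shBAP1. Among the alpha subunits that RGS proteins act on, 1 of 10 measured was higher and 1 lower in shPRAME, and none higher and 3 lower in shBAP1. GNAI1, a Gi alpha subunit, was at 37.3, 14.0 and 82.6 CPM in shEmpty, shBAP1 and shPRAME, 2.22-fold higher in shPRAME (2.03 to 2.43) and 2.66-fold lower in shBAP1 (2.27 to 3.12). GNAO1 (Go) was lower in both, 2.13-fold in shPRAME and 2.50-fold in shBAP1. GNAZ, which encodes the Gz target of RGS20 and RGS17, was 3.17-fold lower in shBAP1 (2.27 to 4.52) and at a log2 ratio of -0.08 in shPRAME. The Gq subunits GNAQ and GNA11 were not called, at 116, 75.1 and 123 CPM and at 98.5, 71.6 and 98.3 CPM. The list's median log2 ratio was 0.09 in shPRAME and -0.55 in shBAP1.

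Of 12 measured beta and gamma subunits, 2 were higher and 1 lower in shPRAME, and none higher and 3 lower in shBAP1, with medians of -0.40 and -0.42. GNG11 and GNG7 were 2.86-fold and 2.75-fold higher in shPRAME, and GNB3 was 2.52-fold lower. In shBAP1, GNG4, GNG12 and GNB3 were 2.72-fold, 2.68-fold and 2.62-fold lower. GNG12 is abundant, at 1437 CPM in shEmpty, 537 in shBAP1 and 1228 in shPRAME.

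Other regulators of alpha subunits were also listed. Of 5 measured GoLoco regulators, which hold alpha subunits in the GDP-bound state, 1 was higher and none lower in shPRAME, and 1 was higher and 1 lower in shBAP1, with medians of 0.86 and -0.43. GPSM3 had 16, 224 and 34 counts in shEmpty, shBAP1 and shPRAME, 17.7-fold higher in shBAP1 (10.6 to 31.5) and 2.18-fold higher in shPRAME (1.17 to 4.23). RAP1GAP was 2.16-fold lower in shBAP1. None of the 5 measured genes with an RGS-like domain and another main role was called (medians 0.15 and 0.15), with AXIN1 at 1.60-fold upward in shPRAME and SNX14 at 1.69-fold upward in shBAP1. GNB5, the beta subunit that pairs with R7 proteins and the only measured one of 3 R7 partners, had log2 ratios of -0.16 and -0.04. With genes of a mean of 10 counts let in, the medians of these partners were 0.08 and 0.36.

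Among receptors and the proteins that switch them off, calls went both ways. Of 21 measured receptors, 3 were higher and 3 lower in shPRAME, and 5 were higher and 6 lower in shBAP1, with medians of 0.03 and -0.55 (0.39 and -0.22 over genes with a mean of 10 counts). ADRB1, the beta-1 adrenergic receptor, was at 1.97, 4.04 and 26.2 CPM in shEmpty, shBAP1 and shPRAME. It was 13.3-fold higher in shPRAME (9.49 to 19.1) and 2.05-fold higher in shBAP1 (1.34 to 3.17). The thromboxane receptor TBXA2R was 4.67-fold higher in shPRAME (3.58 to 6.17) and 2.36-fold higher in shBAP1 (1.74 to 3.21). S1PR3, a sphingosine 1-phosphate receptor that couples to Gi and Gq, was 6.10-fold lower in shPRAME (4.59 to 8.24) and 7.11-fold lower in shBAP1 (5.10 to 10.2). S1PR5 was 6.30-fold lower in shBAP1 (3.90 to 10.7), and the adhesion receptor ADGRG1 was 5.93-fold higher there (5.56 to 6.32). Of 5 measured receptor kinases and arrestins, none was called in shPRAME, and 1 was higher and 2 lower in shBAP1 (medians -0.64 and -0.74). Over genes with a mean of 10 counts those medians were 0.08 and -0.53, so the direction in shPRAME turned. ARRB1, beta-arrestin 1, was 4.17-fold higher in shBAP1 (3.61 to 4.84), while GRK6 and GRK5 were 2.64-fold and 2.32-fold lower. ARRB2 was closest to the limit in shPRAME, at 1.97-fold downward.

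Of the effectors, 5 adenylyl cyclase genes were measured, with 1 lower in shPRAME and none called in shBAP1 (medians -0.28 and -0.12). ADCY1, a calcium-stimulated cyclase, was at 105, 80.6 and 9.52 CPM in shEmpty, shBAP1 and shPRAME, 10.99-fold lower in shPRAME (9.40 to 12.9). ADCY6 stood at 1.71-fold downward in shBAP1. Of 3 measured phospholipase C beta genes, none was called in shPRAME and PLCB4 was 2.66-fold higher in shBAP1 (2.33 to 3.03), with medians of -0.12 and 0.12 (-0.00 and 0.76 over genes with a mean of 10 counts). Of 10 genes known to respond to cAMP, 3 were higher and 2 lower in shPRAME, and 2 were higher and none lower in shBAP1 (medians -0.12 and 0.23). The phosphodiesterase PDE4B was higher in both, 2.59-fold in shPRAME and 2.29-fold in shBAP1. PER1, a circadian clock gene, was 2.66-fold higher in shPRAME. PPARGC1A, a coactivator of mitochondrial genes, was 14.1-fold lower in shPRAME (7.85 to 27.8) and 2.28-fold higher in shBAP1 (1.88 to 2.76).

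**Figure D5:**
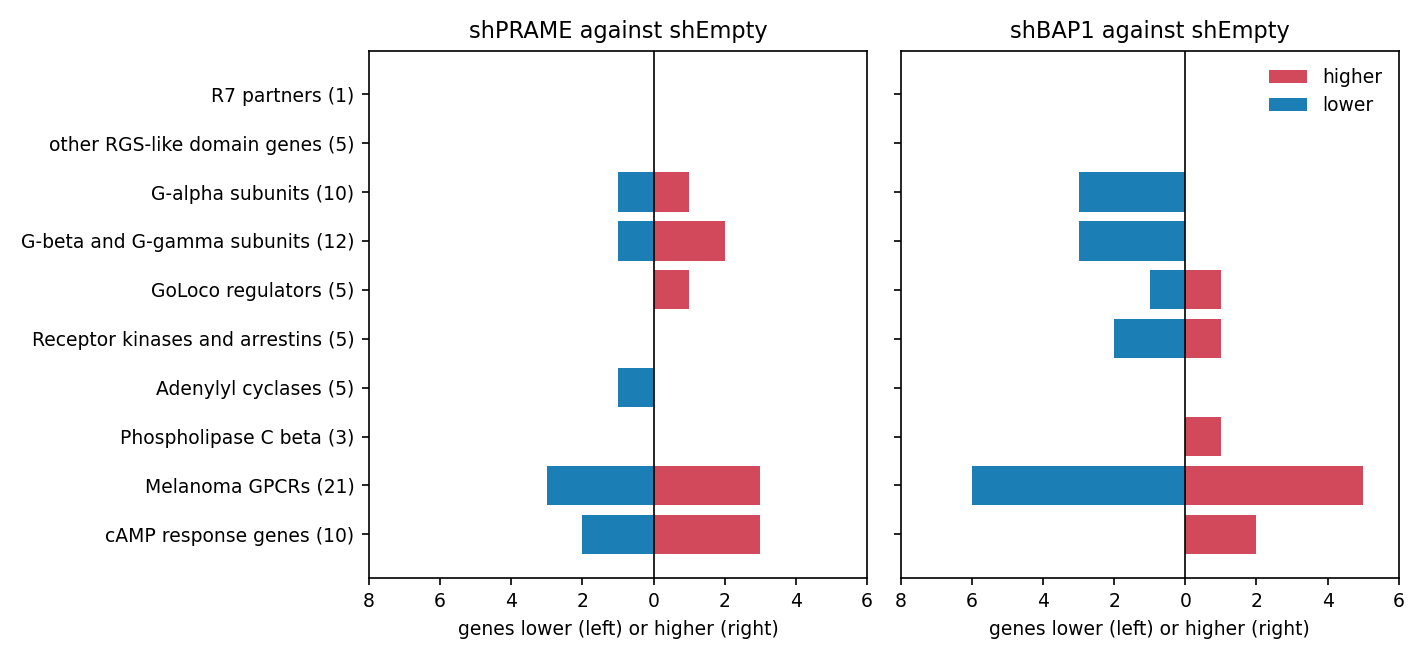
Number of measured genes called lower (left of 0) or higher (right of 0) than in shEmpty in 10 lists of the G-protein cycle, for shPRAME and shBAP1, with the number measured in brackets. In shBAP1 3 of 10 alpha subunits and 3 of 12 beta and gamma subunits were lower and none was higher.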

How the data were processed

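Messenger RNA was sequenced from 3 libraries, 1 per group, as paired reads of 100 bases with a directional kit, per the labels' protocols. The values are whole-number read counts per gene, as the authors deposited them. FastQC, TopHat, Cufflinks and edgeR are named with hg19 (GRCh37) in the submitters' processing notes. For the counting tool, the annotation and the strand setting, no statement was found (not given in the sources used here). All 3 count columns were used.

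Counts were scaled with TMM (edgeR 4.0.16, R 4.3.3), and ratios were taken without a pseudocount. Intervals (95%) are exact Poisson for levels and conditional binomial (Clopper-Pearson) for ratios. A count of 0 was set to a floor of 3 counts, and no p-value was computed. The rule was checked on simulated libraries that held counting error only. That check cannot speak to spread between populations or hairpins. Members, gene lists and motifs were chosen with earlier results of these data known. One list of the G-protein cycle is not reported here. All members were named, with other RGS genes of 10 or more counts and, per list and comparison with shEmpty, up to 3 called genes of largest ratio (1 where none was called). Genes outside that rule are GNAQ, GNA11, NUF2, chromosomal neighbours, rows of few counts and markers, chosen after their values were seen.

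Lengths and overlaps came from GENCODE release 29, and gene order, older symbols and promoters from RefSeq (GRCh38.p14), matched by symbol. The files use another build, so these served for names, lengths, order and sequence only. Of 49 receptors listed, all were found. As alternatives, scaling used upper quartiles, DESeq2 size factors (version 1.42.0) or total counts, with other count minima and fold limits and a pseudocount of 1 CPM tried one at a time. Python 3.11.15, numpy 2.4.6, scipy 1.17.1, pandas 2.3.3 and matplotlib 3.10.9 were used.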

Additional observations from a re-analysis of the deposited data

How the results depend on the processing

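No paired analysis was possible because each group is 1 library. No library could be left out for the same reason. Of 120 recomputed log2 ratios of members under the 3 other scalings and the pseudocount, none changed sign and 117 kept their side of the 2-fold limit. RGS3 in shBAP1 passed it with total-count (1.09) and upper-quartile scaling (1.05), and RGS10 in shBAP1 fell short with total-count scaling (-0.99). With total-count scaling the median of all measured genes in shBAP1 went from -0.03 to 0.09 (log2) and the share of calls that were higher from 39.2% to 49.8%.

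Lower count minima let in more genes: the genes called in shPRAME, in shBAP1 and between the knockdowns went from 2311, 1685 and 3006 to 3251, 2543 and 4097 at a mean of 10 counts and to 3774, 3016 and 4727 with no minimum. List medians depended on the minimum as well. Of 150 recomputed list medians 38 moved by 0.1 or more (log2), 14 at a mean of 10 counts, 14 with no minimum and 10 with total-count scaling. With no minimum the medians of receptor kinases and arrestins were -0.28 in shPRAME and -0.32 in shBAP1, and that of receptors in shBAP1 was -0.17. Adenylyl cyclases in shBAP1 went from -0.12 to -0.25 at a mean of 10 counts and to -0.00 with total-count scaling. The fold limit moved the counts too. With a 1.5-fold limit 7 members were called between shPRAME and shBAP1, 5 higher and 2 lower in shPRAME. With a 3-fold limit 3 were called in shPRAME against shEmpty, all higher, and 4 in shBAP1 against shEmpty, 1 of them lower. The share of measured genes called was 41.0% in shPRAME, 30.5% in shBAP1 and 48.1% between the knockdowns at 1.5-fold, and 8.29%, 6.51% and 11.4% at 3-fold. Of the 76 genes of the G-protein cycle, 37, 41 and 39 were called at 1.5-fold and 5, 9 and 13 at 3-fold, in that order.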

Other observations

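PTGS2 and PLA2G4A, the 2 measured genes before RGS2 on chromosome 1, encode enzymes of prostaglandin synthesis (cyclooxygenase 2 and cytosolic phospholipase A2) and were picked out after their values were seen. PLA2G4A had 747, 1020 and 4917 counts in shEmpty, shBAP1 and shPRAME and was 6.75-fold higher in shPRAME, with a ratio of 1.72-fold upward in shBAP1. PTGS2 had 346, 29 and 994 counts and was 2.94-fold higher in shPRAME and 9.45-fold lower in shBAP1. The order of the libraries for PTGS2 is that of RGS4, and for PLA2G4A that of RGS2. TPR, the next measured gene on that side, was not called, with log2 ratios of 0.07 in shPRAME and 0.05 in shBAP1. UCHL5, GLRX2 and CDC73, the measured genes after RGS2, were not called in either library. The distances of these genes from RGS2 were not compared.

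Receptor kinase genes lie beside 2 members, which was also seen only after the values were known. GRK5 is the nearest measured gene to RGS10 on one side and was 2.32-fold lower in shBAP1, where RGS10 was 2.16-fold lower. INPP5F, a phosphoinositide phosphatase gene and the third measured gene on the other side of RGS10, was 2.07-fold lower there, and TIAL1 and BAG3 between them were not called. GRK6 is the second measured gene beyond RGS14 and was 2.64-fold lower in shBAP1, where RGS14 was 2.48-fold higher.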
